A study of Mus musculus with 4 samples.

Results

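The miRNAs described here are the products of the miR-10 and miR-196 genes that lie inside the Hox clusters of the mouse. They were taken by name, as every row of the authors' deposited miRNA table named mmu-miR-10a, mmu-miR-10b, mmu-miR-196a or mmu-miR-196b, whatever the arm or locus number. This gave 7 of 1167 rows: 4 of miR-10 (mmu-miR-10a-5p, mmu-miR-10a-3p, mmu-miR-10b-5p and mmu-miR-10b-3p) and 3 of miR-196 (mmu-miR-196a-5p, mmu-miR-196b-5p and mmu-miR-196b-3p). The prefix mmu, for mouse, is left out of most names below. The table comes from small RNA sequencing of an anterior head tissue, the main olfactory epithelium, from male C57BL/6 mice aged 3 months. It holds the olfactory sensory neurons. The wild-type group had 2 libraries, and the AC3-/- group, from mice that lack adenylyl cyclase 3 (the enzyme that makes cAMP when an odorant receptor is activated), also had 2. The AC3-/- label names no promoter or Cre, and the labels do not tell separate mice from pools or repeat preparations. Any p-value therefore measures the spread between libraries only, and this may be technical. Small RNA libraries do not read Adcy3 mRNA, the transcript of the targeted gene, so the genotype labels could not be checked here.

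Hox genes encode transcription factors that set position along the head-to-tail axis. Their order along a chromosome matches the order of the body levels at which they are active, and the forebrain and nasal region lie in front of their domain. miRNAs are short RNAs that pair through their seed, bases 2 to 8, with target mRNAs and lower their output; the miR-10 genes sit beside the Hox4 genes and the miR-196 genes beside the Hox9 genes, and members of both families are known to target Hox mRNAs. Outside the embryonic axis, miR-10a and miR-10b are also known from blood vessels, blood-lineage cells and smooth muscle.

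The mature sequences, from RefSeq (GRCm38.p6; 7 of 7 members matched), are shown because a change of 1 base separates the a and b forms and because the seed sets the family. Capitals mark the seed.
miR-10a-5p: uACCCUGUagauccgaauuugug
miR-10b-5p: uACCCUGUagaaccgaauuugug
miR-10a-3p: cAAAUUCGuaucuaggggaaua
miR-10b-3p: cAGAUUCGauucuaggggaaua
miR-196a-5p: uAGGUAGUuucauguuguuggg
miR-196b-5p: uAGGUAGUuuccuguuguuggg
miR-196b-3p: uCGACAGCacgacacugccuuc

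The 2 miR-10 5p arms, each 23 bases long, carry the same seed and differ by U12A, counted from 1 at the 5′ end, from miR-10a to miR-10b. The 2 miR-196 5p arms, of 22 bases, also share a seed and differ by A12C from miR-196a to miR-196b, at the same position. No other mature mouse miRNA in the RefSeq table has either seed. The 3p arms of miR-10a and miR-10b differ at 3 positions (A3G, U9A and A10U from miR-10a to miR-10b), the first of them within the seed, so the 3p arms belong to different seed groups. Whether the authors' read counting asked for exact matches is not given in the sources used here, so reads with a sequencing error at base 12 could have moved between the a and b forms.

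The hairpins of Mir10a and Mir10b are shown to place the 2 arms, which are in capitals. The 5p arm is the one read at a high level in this tissue.
Mir10a: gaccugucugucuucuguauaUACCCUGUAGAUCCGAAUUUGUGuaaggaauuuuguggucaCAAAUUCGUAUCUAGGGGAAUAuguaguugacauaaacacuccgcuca
Mir10b: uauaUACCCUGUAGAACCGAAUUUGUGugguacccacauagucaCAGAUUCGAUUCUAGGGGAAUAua

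In GRCm38 with the GENCODE M21 annotation, Mir10a lies on the plus strand of chromosome 11 from 96317165 to 96317274. No annotated gene of that strand covers it; it is 992 bases before Hoxb4 and 11043 bases after Hoxb5. Mir10b lies on the plus strand of chromosome 2 from 74726070 to 74726137, within introns of the annotated Hoxd3 and Hoxd4 genes. Mir196b lies on the minus strand of chromosome 6 from 52230081 to 52230165, within an exon of the annotated Hoxa9 gene. miR-196a-5p has 2 genes with the same mature sequence, so its reads cannot be assigned to either. Mir196a-1 lies on the plus strand of chromosome 11 from 96265164 to 96265265, 6191 bases before Hoxb9 and covered by no annotated gene of that strand. Mir196a-2 lies on the plus strand of chromosome 15 from 102973350 to 102973434, 3004 bases before Hoxc9 and within an intron of the annotated Hoxc5 gene. The 3p arms of both miR-196a genes have RefSeq entries and no row in the table.

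**Figure D1:**
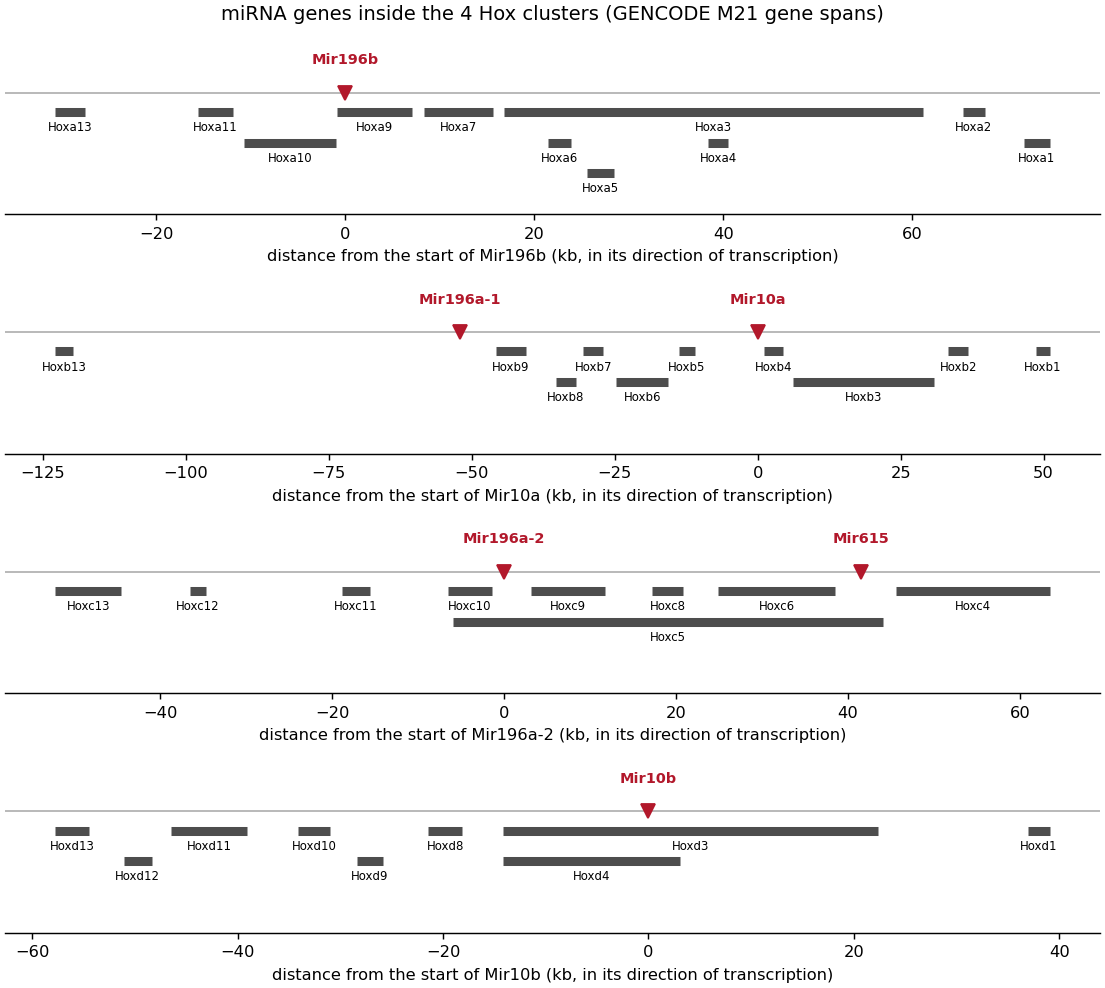
Gene spans of the 4 Hox clusters (grey bars, stacked to avoid overlap) and the miRNA genes inside them (red triangles), with distance in kb from the start of 1 miRNA gene per cluster on the horizontal axis. Mir10a lies 992 bases before Hoxb4, and Mir196a-2 lies 3004 bases before Hoxc9.

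The miR-10 5p arms were well represented in this head tissue, while the miR-196 miRNAs were at the level of a few reads. Values are mean normalised read counts from the authors' deposited table, that is, reads divided by a size factor for each library and averaged over a genotype. miR-10a-5p had a mean of 8301 in AC3-/-, at rank 64 of 1167, and of 4911 in wild type, at rank 81. miR-10b-5p had 4670 and 4255, at rank 89 and 90. The passenger-side 3p arms were far lower, with 31.0 and 28.8 for miR-10a-3p and 9.82 and 11.1 for miR-10b-3p. miR-196b-5p had 7.20 in AC3-/- and 8.02 in wild type, at rank 533 and 513, and miR-196a-5p had 1.74 and 4.36, at rank 747 and 607. miR-196b-3p was listed at 0 in AC3-/- and at 0.585 in wild type.

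**Figure D2:**
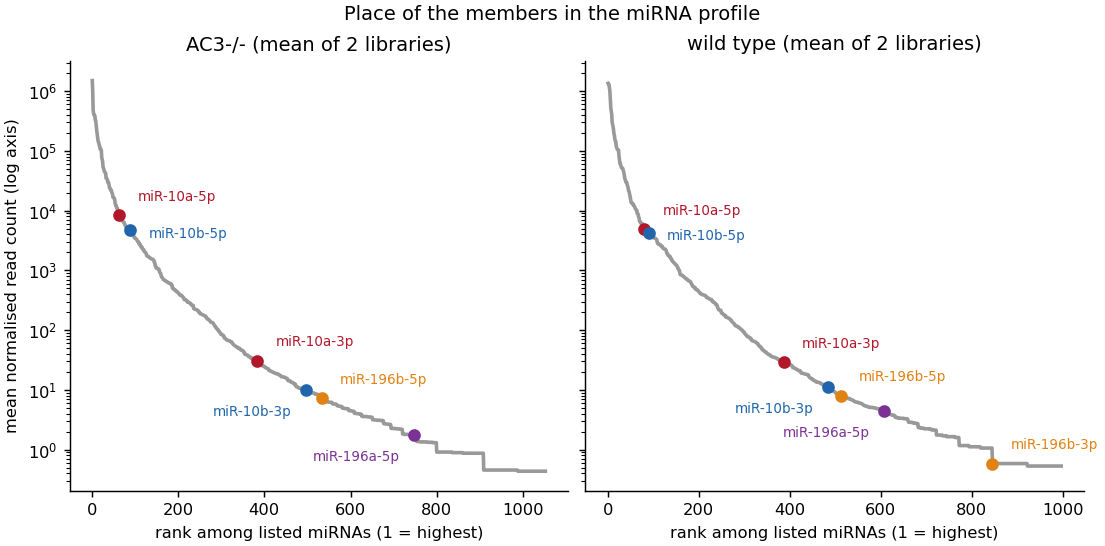
Mean normalised read count (log axis) of every miRNA listed above 0 against its rank, in AC3-/- (left) and wild type (right), with the members as coloured points. miR-10a-5p and miR-10b-5p sit between rank 64 and 90, and the miR-196 rows lie at rank 513 or lower in both genotypes; miR-196b-3p, at 0 in AC3-/-, is not drawn there.

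Together the 7 rows made up 0.149% of the summed means in AC3-/- and 0.0748% in wild type. Their own sum was 13020 in AC3-/- and 9219 in wild type. Part of the gap in share thus comes from the total over all rows, which was 8739148 in AC3-/- and 12320877 in wild type. In single libraries, worked back as described below, the members summed to 12088 and 13952 in AC3-/- and to 12605 and 5833 in wild type. The genotypes therefore overlapped. The 5p arms of miR-10 accounted for 99.6% of the members' reads in AC3-/- and 99.4% in wild type. In the order of mean level over both genotypes, miR-10a-5p at rank 71 stood between miR-25-3p (6693) and miR-125a-5p (6389), with a mean of 6606. miR-10b-5p, with 4462 at rank 89, stood between miR-151-3p (4590) and miR-128-3p (4422), which is known as a neuronal miRNA. Ligation and PCR favour some sequences over others, so these are orders of read level and not of molecule number.

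The reads of each library were worked back from the deposited means, and each member had 1 whole-number solution. The libraries are called AC3-/- a, AC3-/- b, WT a and WT b (WT, wild type); the letters carry no replicate number. Over the 4 libraries the miR-10 rows held 46011 reads and the miR-196 rows 44. The 2 AC3-/- libraries held between 19244661 and 20015622 reads in all and the 2 wild-type libraries between 21181921 and 23078313, over all 1167 rows. The wild-type libraries stood apart from each other: 115 of 448 miRNAs (those with recovered libraries and a mean reaching 10) differed 2-fold or more between them, against 26 between the AC3-/- libraries. The SD of the log2 ratio between libraries was 1.11 in wild type and 0.57 in AC3-/-. The list of sensory-epithelium miRNAs (miR-200 family and miR-183 cluster), taken here as markers of the labelled tissue, had 16 of 16 miRNAs listed and none at 0. Its means summed to 1832630 in AC3-/- against 5463498 in wild type. Only 8 of the 16, without the most abundant, have library values. Those summed to 24649 in AC3-/- a, 27571 in AC3-/- b, 23570 in WT a and 61504 in WT b, so the high library was WT b alone.

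mmu-miR-10a-5p, the most abundant member, had 7311 normalised reads in AC3-/- a, 9291 in AC3-/- b, 7357 in WT a and 2465 in WT b. These stand for 8392, 10207, 6924 and 2108 reads. WT b was the low library, and WT a fell between the AC3-/- libraries, so the genotypes overlapped. The AC3-/- mean was 1.69-fold the wild-type mean. The authors' deposited table gives a log2 fold change of 0.53 (p = 0.25, adjusted p = 0.940 over 1167 miRNAs). In limma's moderated test of the recovered libraries the log2 difference was 0.95, with an SE of 0.53 and an adjusted p of 0.932 over 448 miRNAs. Without WT b the log2 difference was 0.16 (limma, adjusted p = 0.863), and 2 of 448 miRNAs (0.446%) were called. Without WT a it was 1.74 with an adjusted p of 2.67e-05 by limma, where the lone wild-type library is assumed to vary like the AC3-/- pair; 65 of 448 miRNAs (14.5%) were called in that setting.

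mmu-miR-10b-5p varied less. It had 4742 normalised reads in AC3-/- a, 4598 in AC3-/- b, 5170 in WT a and 3340 in WT b. The AC3-/- values both lay between the wild-type values. The AC3-/- mean was 1.10-fold the wild-type mean, and the authors' deposited table gives a log2 fold change of 0.12 (p = 0.738, adjusted p = 0.970). By limma the log2 difference was 0.17, with an SE of 0.30 and an adjusted p of 0.932. Without WT b the log2 difference was -0.15, of the opposite sign (limma, adjusted p = 0.891).

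mmu-miR-10a-3p had 20.04 normalised reads in AC3-/- a, 41.9 in AC3-/- b, 43.6 in WT a and 14.0 in WT b, from 23, 46, 41 and 12 reads. The low libraries were thus 1 of each genotype. mmu-miR-10b-3p had 8.71 in AC3-/- a, 10.9 in AC3-/- b, 12.8 in WT a and 9.36 in WT b, from 10, 12, 12 and 8 reads, and its 4 libraries lay close together. Neither 3p arm passed a test. The adjusted p was 0.979 for each in the authors' deposited table. The limma log2 difference was 0.21 (SE 0.68) for miR-10a-3p and -0.15 (SE 0.54) for miR-10b-3p, with an adjusted p of 0.960 for each.

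mmu-miR-196b-5p had 4 reads in AC3-/- a, 12 in AC3-/- b, 14 in WT a and 1 in WT b, which are 3.48, 10.9, 14.9 and 1.17 normalised reads. mmu-miR-196a-5p had 4 reads in AC3-/- a, 0 in AC3-/- b, 6 in WT a and 2 in WT b, which are 3.48, 0, 6.38 and 2.34 normalised reads. A count of 0 allows up to 3 reads, or 2.73 normalised reads in AC3-/- b. mmu-miR-196b-3p had 1 read in all, in WT b. The genotypes overlapped for each of these miR-196 rows, and differences between genotypes were not detectable at this depth. The authors' deposited table gives an adjusted p of 0.979 for miR-196b-5p and 0.940 for each of miR-196a-5p and miR-196b-3p. These limits cover counting error only, since no molecular identifiers are described and PCR copies cannot be told from separate molecules.

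**Figure D3:**
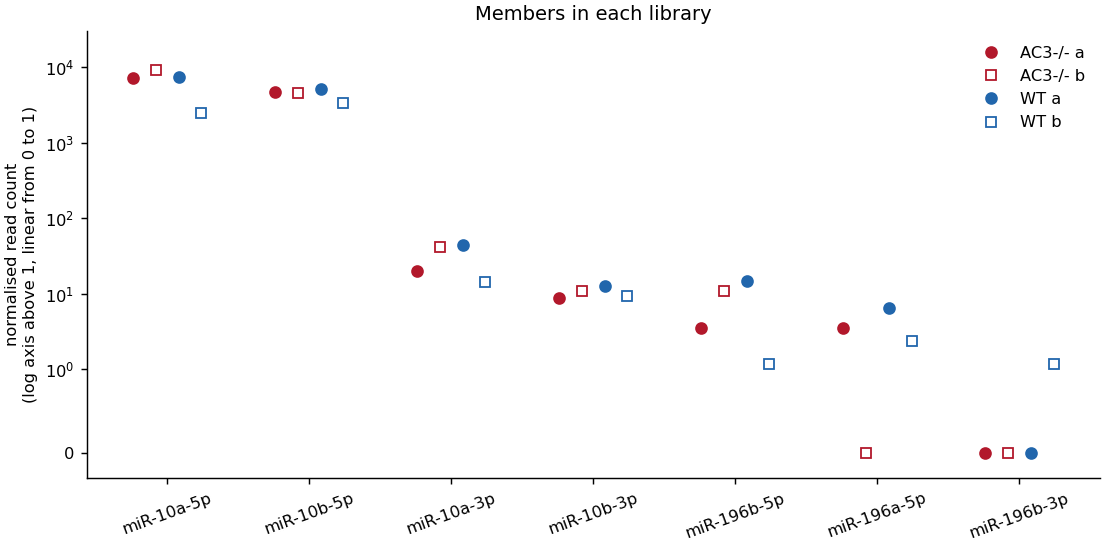
Normalised read count of each member (vertical axis, log above 1 and linear from 0 to 1) in the AC3-/- libraries (red) and the wild-type libraries (blue); each point is 1 library. The genotypes overlap for all 7 members, and WT b holds the lowest miR-10a-5p value, 2465.

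No member passed a test of the difference between the genotypes. Of the 7 members, 0 passed an adjusted p of 0.05 in the authors' deposited table, where 0.0857% of all rows did, and 0 had an unadjusted p under 0.05, where 3.51% did. Their p-values ranged from 0.25 to 0.904. limma called 0 of the 4 members with a mean of at least 10 and 0 of all 448 miRNAs, and 0 of the 4 had an unadjusted p under 0.05, where 16 of 448 (3.57%) did. The smallest p that exact permutation of 4 libraries in pairs allows is 0.333. Over the recovered libraries the genotypes overlapped for 7 of 7 members, while they did not overlap in 28.2% of all 1123 rows with library values. The log2 fold change was above 0 for 3 members and below 0 for 4, with a median of -0.06, beside 578 of 1167 above 0 (49.5%) and a median of -0.01 over all rows. Rescaling to the genotype totals, which are higher in wild type, adds 0.50 to every log2 ratio of the means: that of miR-10a-5p then becomes 1.25 and that of miR-10b-5p 0.63, and that of miR-10b-3p turns from -0.17 to 0.32. With totals taken without the 10 most abundant miRNAs the addition is 0.24, and these log2 ratios are 0.99, 0.37 and 0.064.

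The order of the 2 miR-10 5p arms was not the same in every library. miR-10a-5p had 1.54 times the level of miR-10b-5p in AC3-/- a, 2.02 times in AC3-/- b and 1.42 times in WT a. In WT b it was the lower one, at 0.738 of miR-10b-5p. The order was therefore not constant over these libraries, and the difference between the 2 levels was not tested. miR-10a-3p was above miR-10b-3p in all 4 libraries, at 1.5 to 3.83 times its level. miR-10b-3p and miR-196b-5p overlapped, as did miR-196b-5p and miR-196a-5p, so the lower end of the order is not resolved.

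The 2 arms of miR-10a differed between the wild-type libraries by like amounts, and those of miR-10b by less. In WT b, relative to WT a, miR-10a-5p was 2.98-fold lower and miR-10a-3p 3.10-fold lower, while miR-10b-5p was 1.55-fold lower and miR-10b-3p 1.36-fold lower. On the log2 scale with 1 added, the difference of -1.58 for miR-10a-5p was matched or exceeded downward by 26 of the 448 miRNAs (5.80%), and that of -0.63 for miR-10b-5p by 97 (21.7%). Between the AC3-/- libraries the difference of b from a was 0.35 for miR-10a-5p and -0.04 for miR-10b-5p. For the 3p arms it was 1.03 for miR-10a-3p and 0.30 for miR-10b-3p, so the arms of miR-10a differed by unlike amounts there. The 5p arm of miR-10a outnumbered its 3p arm 169 times in WT a, 176 times in WT b, 365 times in AC3-/- a and 222 times in AC3-/- b. For miR-10b that ratio was 405.5 in WT a, 357 in WT b, 544 in AC3-/- a and 421 in AC3-/- b. These ratios rest on 8 to 46 reads of the 3p arms.

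**Figure D4:**
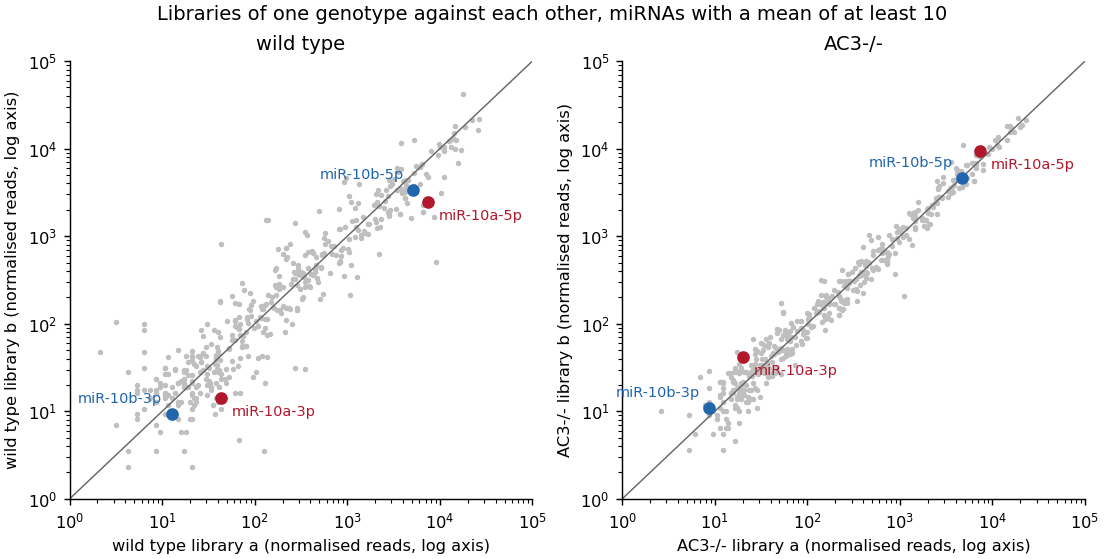
Normalised reads of library b against library a (both axes log) for wild type (left) and AC3-/- (right), with miRNAs of a mean of at least 10 in grey, the 4 miR-10 arms in colour and the line of equal values. In wild type the 2 miR-10a arms lie about 3-fold below the line, at -1.58 and -1.57 on the log2 scale with 1 added, while miR-10b-5p lies at -0.63.

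Among 250 other miRNAs with recovered libraries and a mean reaching 100, the patterns most like that of miR-10a-5p over the 4 libraries were those of miR-142a-3p, miR-142b and miR-155-5p. miR-142a-3p is made throughout the blood lineage and miR-155-5p is induced in activated immune cells. Likeness was the Euclidean distance between log2 profiles, each centred on its own mean, and it was 0.198 for miR-142a-3p and miR-142b and 0.351 for miR-155-5p. The distance from miR-10a-5p to miR-10b-5p was 1.07. miR-142a-3p and miR-142b have identical values in all 4 libraries and count as 1 observation. miR-142a-3p had 6699 normalised reads in AC3-/- a, 8355 in AC3-/- b, 6566 in WT a and 1901 in WT b. For miR-10b-5p the nearest were miR-374b-5p (0.0605), miR-374c-3p (0.0616) and miR-450a-5p (0.106). miR-374b-5p had 2478 in AC3-/- a, 2471 in AC3-/- b, 2819 in WT a and 1728 in WT b, and miR-374c-3p had nearly the same values. These distances over 4 libraries describe the libraries and carry no test.

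How many of all miRNAs had their lowest value in WT b was not counted. Of the 6 leukocyte markers, 5 were lowest in that library, as miR-10a-5p was. Without the share over all miRNAs, this count does not set the leukocyte markers apart from other miRNAs. The 5 include both arms of miR-142a and both of miR-223, and arms of the same hairpin are not separate observations. The 6 markers (both arms of miR-142a, miR-223 and miR-150) were all listed, with none at 0 in either genotype. They summed to 12974 normalised reads in AC3-/- a, 16031 in AC3-/- b, 15545 in WT a and 4894 in WT b. The sum in WT b was 3.18-fold below that in WT a. The miR-142a arms make up most of these sums, and the markers differed among themselves. miR-223-3p had 632 normalised reads in AC3-/- a, 738 in AC3-/- b, 1079 in WT a and 214 in WT b, with WT a above both AC3-/- libraries. The exception was the scarce miR-150-3p, with 10.5 in AC3-/- a, 14.6 in AC3-/- b, 3.19 in WT a and 7.02 in WT b, where WT a was lowest. The multiciliated-cell list (miR-34b, miR-34c and miR-449) has library values for 7 of 8 miRNAs. These summed to 13869 in AC3-/- a, 26256 in AC3-/- b, 30648 in WT a and 5976 in WT b. WT b was thus 5.13-fold below WT a. The sums leave out the most abundant miRNA of the list, miR-34c-5p. It held 230226 of the list's 250288 in AC3-/- and 225941 of 244253 in wild type, so the sums cover a small part of the list. The sensory-epithelium list has library values for 8 of 16 miRNAs. These went the other way, with 23570 in WT a, 61504 in WT b, 24649 in AC3-/- a and 27571 in AC3-/- b. They leave out its most abundant miRNAs, miR-200b-3p, miR-183-5p and miR-182-5p. The means of the whole list sum to 1832630 in AC3-/- and 5463498 in wild type, so the library sums describe its scarcer miRNAs. The endothelial and smooth-muscle list (miR-126a, miR-143 and miR-145a) has library values for 4 of 6 miRNAs. These summed to 22309 in AC3-/- a, 21466 in AC3-/- b, 21792 in WT a and 15421 in WT b. The sums were 1.41-fold lower in WT b than in WT a, and they leave out miR-143-3p and miR-126a-3p. The means of the whole list sum to 638427 in AC3-/- and 545443 in wild type. The neuron, mesenchyme and cartilage, and striated-muscle lists have library values for 2 of 3, 4 of 7 and 5 of 5 listed miRNAs. Their sums differed less between the wild-type libraries, as the plot of marker sums shows. The neuron sums leave out miR-9-5p, which held 107472 of the list's 112386 in AC3-/- and 103336 of 107501 in wild type. The mesenchyme and cartilage sums leave out miR-199a-3p, miR-140-3p and miR-199a-5p. The part of these markers in the miR-10 values was not tested, and in tissue libraries fewer cells of a type and less RNA per cell cannot be told apart.

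**Figure D5:**
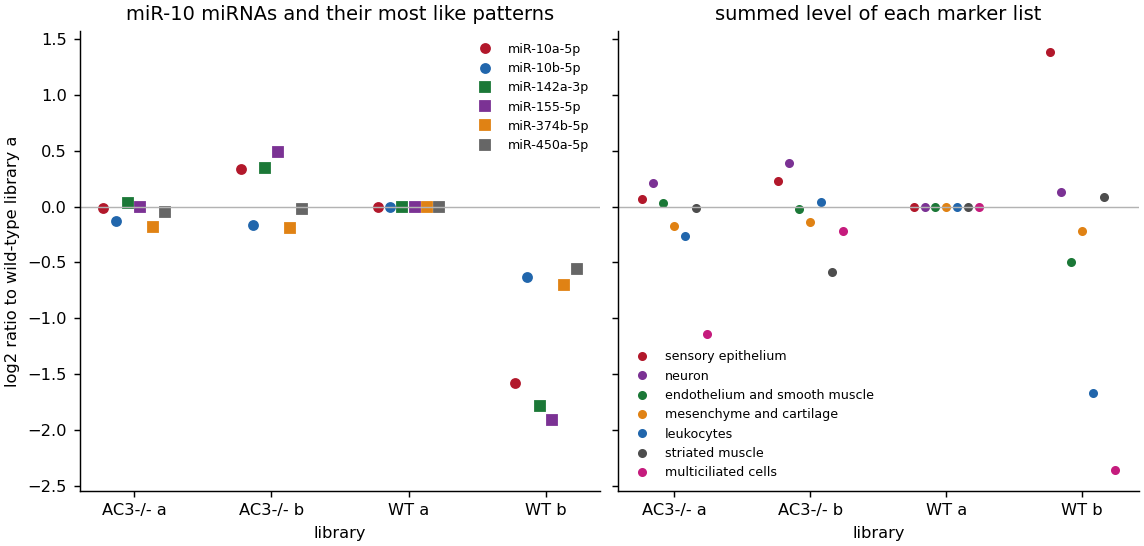
Log2 ratio of each library to WT a for the 2 miR-10 5p arms and 4 of the miRNAs with the most like patterns (left) and for the summed level of 7 marker lists over their miRNAs with library values (right); each point is 1 library, and WT a is 0 by construction. In WT b miR-10a-5p lies with miR-142a-3p and miR-155-5p. The leukocyte list is 3.18-fold lower in WT b than in WT a, and the multiciliated-cell list 5.13-fold lower. Apart from the leukocyte and striated-muscle lists, the sums leave out the most abundant miRNAs of a list.

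The miR-99 and miR-100 miRNAs, which lie outside the Hox clusters, are the nearest relatives of miR-10 by sequence. They are shown because each shares a run of 10 or 11 bases with 1 of the 2 miR-10 5p arms and yet has a seed of its own (capitals).
miR-99a-5p: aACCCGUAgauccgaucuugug
miR-99b-5p: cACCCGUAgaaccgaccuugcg
miR-100-5p: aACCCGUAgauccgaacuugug

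miR-10a-5p shares a run of 11 bases with miR-100-5p and of 10 with miR-99a-5p, while miR-10b-5p shares a run of 10 with miR-99b-5p; these runs hold the base at which miR-10a and miR-10b differ. In the other 3 pairings, miR-10a-5p with miR-99b-5p and miR-10b-5p with miR-99a-5p or miR-100-5p, the longest shared run is 5 bases. The relatives were read more often than miR-10. The AC3-/- and wild-type means in the authors' deposited table were 122313 and 112450 for miR-99a-5p, 18844 and 18201 for miR-99b-5p, and 16752 and 13604 for miR-100-5p. miR-100-5p had 15495 normalised reads in AC3-/- a, 18009 in AC3-/- b, 14818 in WT a and 12391 in WT b, and the genotypes did not overlap, as in 33.7% of the 448 miRNAs with a mean of at least 10. miR-99b-5p differed 1.05-fold between the wild-type libraries, with 18623 in WT a and 17779 in WT b. Of their 6 rows, 5 had a log2 fold change above 0, with a median of 0.14, and 0 had an unadjusted p under 0.05. The scarce arms were miR-99b-3p with means of 597 and 519, miR-99a-3p with 31.5 and 23.5, and miR-100-3p with 4.38 and 6.06.

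The Hox clusters hold 1 more miRNA gene with a row in the table, Mir615, within an intron of the annotated Hoxc5 gene. miR-615-3p had 3 reads in AC3-/- a, 2 in AC3-/- b and 0 in both wild-type libraries, with p = 0.153 and an adjusted p of 0.940 in the authors' deposited table. A count of 0 allows up to 3 reads, or 3.19 normalised reads in WT a and 3.51 in WT b, which is above the AC3-/- values of 2.61 and 1.82.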

How the data were processed

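Small RNA of the main olfactory epithelium was sequenced in 4 libraries, 2 per genotype; sample titles gave the groups. Per the submitters' processing notes, Bowtie, DESeq 1.8.3 and GRCm38 were used; for their roles, the read counter, its mismatch setting and the miRBase release, the sources used here give nothing. The authors deposited 1 table of 1167 miRNAs. Its abundance columns hold a signal, the mean over a genotype of reads divided by size factors, per the file headers and the values. The deposited log2 fold change is shrunken toward 0, and the deposited p-value is adjusted over all rows by Benjamini and Hochberg's method. The table held 0 columns of single samples.

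Each mean is a sum of whole reads of 2 libraries times their steps, which had 1 solution in 1124 (AC3-/-) and 1132 (wild type) of 1167 rows; size factors were 1.15 and 1.10, and 0.941 and 0.855. On simulated data each of 1115 and 1133 uniquely solved rows was right. limma 3.58.1 (R 4.3.3) with an intensity trend was fitted to log2 of the normalised value plus 1, for the 448 miRNAs whose mean reached 10; the added 1 makes changes of low miRNAs look smaller. On simulated libraries of 434 miRNAs it called 55 of 65 that were changed 4-fold and 3 unchanged ones. The simulation gave every miRNA the same spread setting in both genotypes. In the real libraries the SD of the log2 ratio between libraries was 1.11 in wild type and 0.57 in AC3-/-. The simulated calls therefore do not give the power of the test in these data.

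The members, marker lists and tests were chosen with earlier results of these data known. The text names every member, the miR-99/100 and miR-615 rows, at most 3 miRNAs of a marker list, the 3 most like patterns of each member with a mean of at least 100 and the neighbours of the 2 miR-10 5p arms in level; other marker names only say what a list holds. miR-223-3p, miR-150-3p, miR-126a-5p and miR-145a-3p are not covered by this rule and were picked with their values in view. Alternatives covered scaling, pseudocount, filter, trend and each library left out.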

Additional observations from a re-analysis of the deposited data

How the results depend on the processing

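No member was called in any other setting tried with all 4 libraries (adjustment over rows with a mean of at least 10 or 100, an unadjusted p of 0.05, a pseudocount of 10, other filters, no trend, median-ratio rescaling). With each library left out in turn, limma called 0 to 1 members. The 1 was miR-10a-5p without wild-type library a, a fit that rests on 1 wild-type library. Many other miRNAs were called in that fit too, as given above, so the call does not set miR-10a-5p apart. Over these settings the limma log2 difference ranged from -0.15 (without wild-type library b) to 0.48 for miR-10b-5p, from -0.57 (without wild-type library b; -0.30 without AC3-/- library b) to 0.998 for miR-10a-3p, and from -0.35 to 0.055 (without wild-type library a) for miR-10b-3p, so the sign of these 3 changed where 1 library of a genotype was left. Without the 10 most abundant miRNAs in the total, the members' share was 0.402% in AC3-/- and 0.242% in wild type, since the total is smaller. With 1 library left out, the ratio of miR-10b-5p to miR-10a-5p ranged from 0.703 to 1.35 in wild type and from 0.495 to 0.649 in AC3-/-, and the members' summed level from 5833 (wild-type library b alone) to 12605 and from 12088 to 13952 normalised reads. The share of single libraries was not run, because the most abundant miRNAs have several whole-read solutions. No paired analysis was possible because the deposited columns are genotype means and the recovered libraries carry no replicate number. Depth limits the miR-196 rows, which rest on 44 reads.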
